A study of Mus musculus with 6 samples.

Results

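The genes described are those of the mitochondrial carrier family SLC25, taken by symbol as Slc25a followed by a number. The count table lists 55494 genes, and 46 of them met this rule. Of these, 40 passed the filter on low counts, which 16097 genes passed in all. They were measured in 6 poly(A) RNA libraries of primary muscle stem cells, the satellite cells that repair adult skeletal muscle, isolated from wild-type mice. The 3 control libraries came from cells cultured for 2 days without 11,12-EET, and the 3 EET libraries from cells kept with it for 2 days. 11,12-EET is an epoxide of arachidonic acid made by cytochrome P450 enzymes. The sources used here give neither its dose, nor the control medium, nor the age and number of the mice. Nothing in the labels ties the libraries of a group to different mice or dishes. The p-values therefore reflect the spread among these libraries alone, and that spread may be technical.

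SLC25 carriers are proteins of the inner mitochondrial membrane, with a few members in other membranes, that exchange metabolites between the matrix and the cytosol. They are made in the cytosol without a cleavable targeting sequence in most cases, and are inserted into the inner membrane through TOM70, the small TIM chaperones and the TIM22 complex. In muscle they pass ADP and ATP, phosphate, the reducing equivalents of the malate-aspartate shuttle, amino acids, coenzymes and iron. The adenine nucleotide carrier of heart and skeletal muscle is encoded by Slc25a4, and that of proliferating cells by Slc25a5.

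Library totals ran from 30371291 to 37243882 counts. The satellite cell and myoblast markers were present, with a summed level (7 markers, of which 3 rose and 1 fell) in CPM, the count of a gene per 1e6 counts of its library after TMM scaling, of 2834 to 3032 CPM in controls and 3038 to 3117 CPM with EET. Markers of other cells were detected too, and several moved with the treatment. By the threshold given below, 24.6% of all tested genes rose and 23.3% fell, and the counts of markers are to be read beside these shares. The marker values are as counted, and the part of mRNA length in them, described below, was not tested. The 6 endothelial markers summed to 259 to 276 CPM in controls and 144 to 166 CPM with EET (5 of 6 fell, 0 rose), and the 6 Schwann cell markers to 528 to 545 and 439 to 463 CPM (4 fell, 1 rose). The 6 fibro-adipogenic markers summed to 267 to 273 and 226 to 239 CPM (2 fell, 0 rose), and the 6 macrophage and leukocyte markers to 94.4 to 101 and 59.6 to 94.5 CPM (2 fell, 0 rose). The 6 markers of differentiated muscle summed to 35.9 to 47.9 and 61.9 to 72.3 CPM (6 rose). None of these markers was at 0, and the red cell genes Hbb-bs, Hba-a1, Hba-a2 and Alas2 summed to 1.58 to 42.1 CPM in controls and 2.05 to 23.5 CPM with EET. The part of other cells in the results on carriers was not tested, and in bulk RNA a lower share of a cell type cannot be told apart from less RNA per cell.

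Most of the carriers that passed the threshold were higher with EET. A gene is said to have risen or fallen where edgeR's quasi-likelihood test gave a Benjamini-Hochberg adjusted p under 0.05 over the 16097 genes. Of the 40 tested carriers, 15 rose (37.5%) and 4 fell (10%), where 24.6% of all tested genes rose and 23.3% fell. Folds were small. The carriers that rose were at 1.18 to 1.66 times their control level, and those that fell at 0.793 to 0.833 times. The median log2 fold change was 0.11 over the carriers and 0.005 over all tested genes. The EET libraries lay wholly above the controls for 17 carriers and wholly below for 9, against 29.6% and 28% of all tested genes. The summed level of the 46 genes was 2900, 2764 and 2740 CPM in the controls and 3564, 3528 and 3393 CPM with EET, groups that did not overlap. Without Slc25a3, Slc25a4 and Slc25a5, which together held 56.7 ± 1.77% of that sum in controls and 62.9 ± 1.1% with EET (SD, n = 3 each), the sum was 1213 ± 13.5 and 1295 ± 10.2 CPM.

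The direction of change followed the length of the mRNA. In these libraries short mRNAs in general were higher with EET and long ones lower, and the carriers differ in mRNA length from 1111 bp (Slc25a43) to 6351 bp (Slc25a12). Across the 40 carriers the log2 fold change had a Spearman correlation of −0.74 with mRNA length, and across 13952 tested protein-coding genes one of −0.68. These are correlations across genes measured in the same libraries. With a boundary of 2700 bp, chosen after the values were seen, 14 of 19 carriers with shorter mRNAs rose and 0 fell, beside 53.9% and 2.3% of protein-coding genes of that length. Of 21 carriers with longer mRNAs 1 rose (4.76%) and 4 fell (19%), beside 8.55% and 41% of protein-coding genes. A second value is therefore given for each carrier, from a fit in which the dependence of each library on mRNA length and GC content was taken out (here called the trend). It is the change compared with other mRNAs similar in length and GC content. In that fit 6 of the 40 carriers were called higher (15%) and 3 lower (7.5%), where 16.2% of all tested genes were called higher and 15.2% lower, and the median over the carriers was 0.02. The share of carriers called higher there was thus near that of all genes. Carriers called higher in both fits were Slc25a4, Slc25a11 and Slc25a46, and those called lower in both were Slc25a24 and Slc25a30. Another 11 that rose and 2 that fell lost their calls, Slc25a12, Slc25a32 and Slc25a37 were called higher with the trend removed alone, and Slc25a5 changed from higher to lower.

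**Figure D1:**
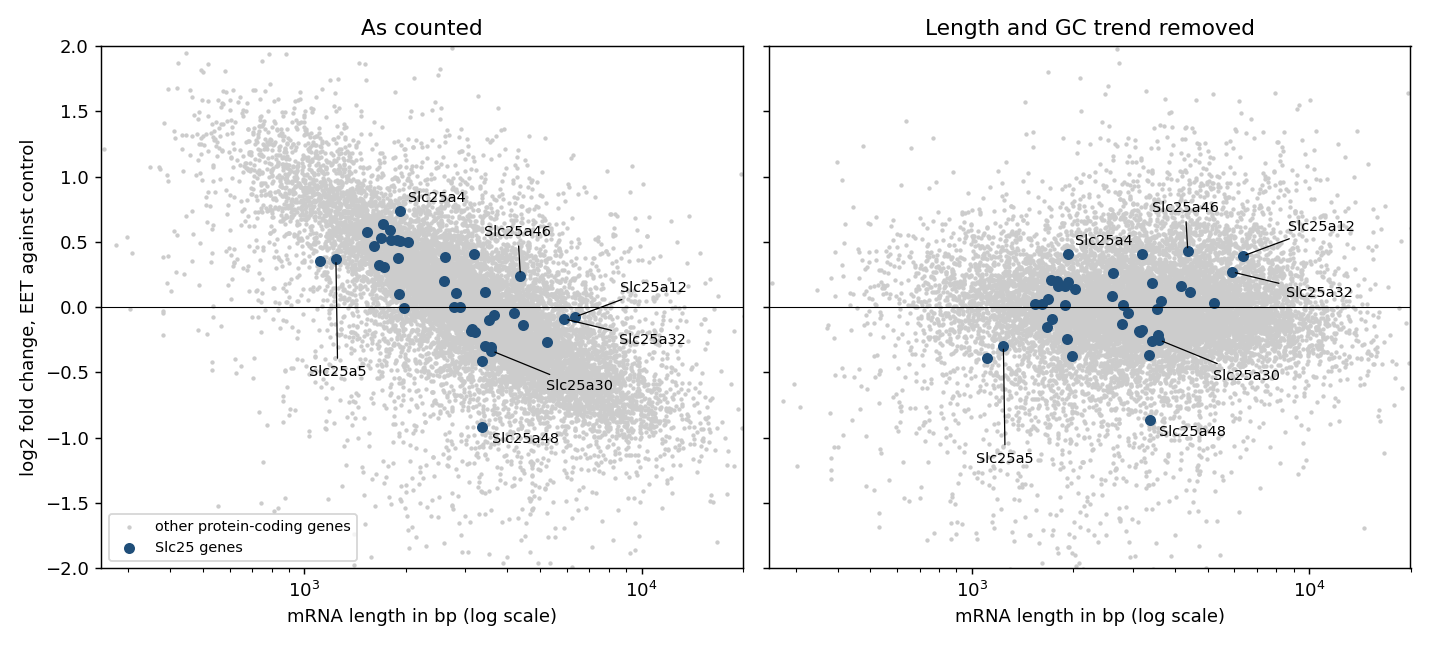
Log2 fold change (EET against control) against mRNA length in bp on a log axis, for 13952 protein-coding genes (grey) and the 40 tested Slc25 genes (blue), with values as counted on the left and, on the right, after removal of the length and GC trend. As counted the carriers follow the slope of the other genes, and with the trend removed Slc25a4, Slc25a12 and Slc25a46 lie near 0.4 and Slc25a5 below 0; 42 grey points on the left and 44 on the right lie outside the axes.

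**Figure D2:**
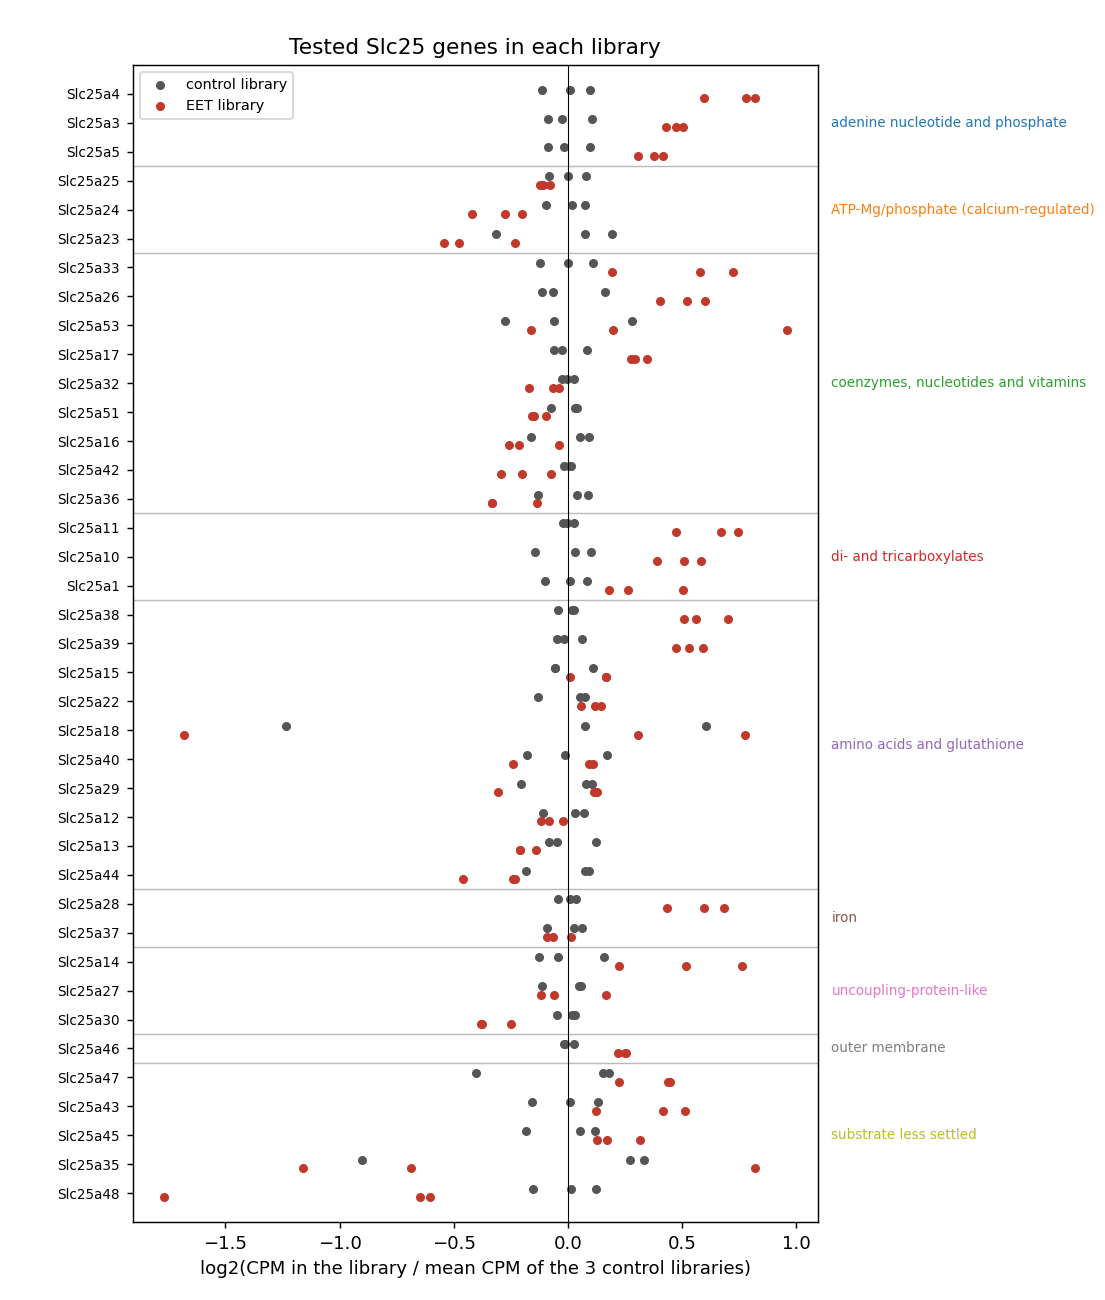
Level of the tested Slc25 genes described here in each library, as log2 of its CPM over the mean of the 3 controls, with genes grouped by what they carry (grey, control libraries; red, EET libraries). The 3 EET points lie right of the controls for Slc25a4 and Slc25a11 and left of them for Slc25a24 and Slc25a30, and spread widely for genes under 1 CPM such as Slc25a18, Slc25a35 and Slc25a48.

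Adenine nucleotide and phosphate carriers were the most abundant members and all 3 that were tested rose, beside 24.6% of all tested genes. All 3 have mRNAs under 2700 bp, a length at which 53.9% of protein-coding genes rose. With the trend removed 1 was called higher and 1 lower. Slc25a4, which encodes the ADP/ATP carrier of heart and skeletal muscle, is on chromosome 8 from 46206797 to 46211284, minus strand (GRCm38). It was at 287, 249 and 271 CPM in the control libraries and at 475, 461 and 406 CPM with EET. The groups were far apart, and the log2 fold change was 0.73 ± 0.08 (SE; edgeR adjusted p = 4.35e-06), the largest rise among the tested carriers. It was called in each of 18 alternative fits, and with the trend removed it was 0.41 ± 0.05 (adjusted p = 4.08e-06). Slc25a5, the ADP/ATP carrier gene of proliferating cells, is on chromosome X from 36795651 to 36798807, plus strand. It was at 838, 775 and 738 CPM in controls and at 1046, 1018 and 970 CPM with EET, again without overlap. Its log2 fold change was 0.37 ± 0.07 (edgeR adjusted p = 0.000417). At an mRNA length of 1240 bp this was a smaller rise than that of mRNAs of like length, and with the trend removed Slc25a5 was called lower, at −0.30 ± 0.04 (adjusted p = 2.91e-05). Of its near-identical copies (at least 95% identity over 100 bp) 3 have rows in the table, with 331 counts in all libraries against 183755 for Slc25a5.

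The ratio of Slc25a4 to Slc25a5 was higher with EET, and the mRNA of Slc25a4 is the longer one (1925 bp). Per kilobase of mRNA the Slc25a4 level was 0.221, 0.207 and 0.236 of that of Slc25a5 in the controls and 0.292, 0.292 and 0.269 with EET. Each EET library had a higher ratio than each control. Slc25a5 stayed the more abundant, at 632 ± 40.4 and 816 ± 30.8 CPM per kb, beside 140 ± 9.99 and 232 ± 18.9 for Slc25a4 (SD, n = 3 each). Slc25a3, which encodes the phosphate carrier that supplies ATP synthase, lies between them at 332 ± 22.7 and 460 ± 12.3 CPM per kb. It rose from 576, 526 and 505 CPM to 760, 744 and 720 CPM (log2 fold change 0.47 ± 0.07, edgeR adjusted p = 5.43e-05), and with the trend removed it was at 0.02 and not called (adjusted p = 0.752). Slc25a31, the ADP/ATP carrier gene of germ cells, had at most 4 counts in a library and was not tested.

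**Figure D3:**
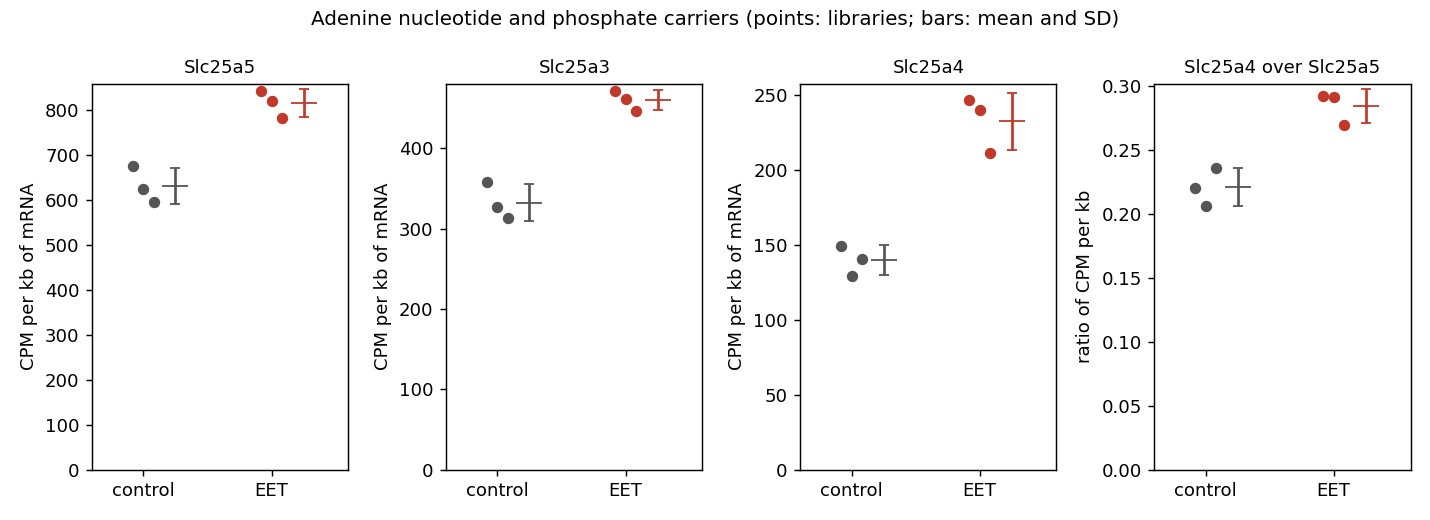
Levels of Slc25a5, Slc25a3 and Slc25a4 in CPM per kb of mRNA in each library, and the ratio of Slc25a4 to Slc25a5 on the same scale; points are libraries and bars the mean and SD of 3. The EET libraries lie above the controls in each panel, and the ratio goes from a mean of 0.221 to 0.285.

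The promoter windows of this pair are shown because the genes encode carriers of the same substrates and their calls differed once length was taken into account. The windows are RefSeq's, from 250 bases before to 50 after RefSeq's start site on GRCm38.p6. They are at chr8:46211013-46211312 (minus strand) for Slc25a4 and chrX:36795347-36795646 (plus strand) for Slc25a5. Gene coordinates here are from GENCODE M21, whose gene ends differ from these start sites. Most of the Slc25a4 window lies inside the GENCODE span of the gene (46206797 to 46211284). The Slc25a5 window ends before its span (36795651 to 36798807). Positions are counted from RefSeq's start site only. Capitals mark matches, on either strand, to any of 6 motifs searched. These were the NRF1 motif, known by its name, the ERR motif TNAAGGTCA, the CRE TGACGTCA and the CCAAT box. The letters searched for the ETS motif were CCGGAAG. For the GC box, which is bound by SP1 and KLF factors, they were GGGCGG.
Slc25a4: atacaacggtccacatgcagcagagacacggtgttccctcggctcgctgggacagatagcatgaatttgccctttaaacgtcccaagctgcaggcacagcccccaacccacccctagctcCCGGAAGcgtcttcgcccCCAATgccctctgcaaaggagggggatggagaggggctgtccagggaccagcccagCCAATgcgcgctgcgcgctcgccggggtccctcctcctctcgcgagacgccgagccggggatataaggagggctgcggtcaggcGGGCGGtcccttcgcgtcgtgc
Slc25a5: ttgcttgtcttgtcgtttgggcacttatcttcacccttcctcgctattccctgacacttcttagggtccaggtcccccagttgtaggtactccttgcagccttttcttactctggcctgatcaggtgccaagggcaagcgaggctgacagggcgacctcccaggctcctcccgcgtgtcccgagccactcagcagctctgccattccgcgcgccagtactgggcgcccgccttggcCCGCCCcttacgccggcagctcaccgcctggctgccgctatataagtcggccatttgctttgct
The Slc25a4 window held the ETS letters at position −130 from the start site, the CCAAT box at −112 and −56 and the GC box at 29, and no match overlapped another. The Slc25a5 window held a single match, to the GC box on the other strand at −14. Windows were found for 31 tested carriers. A GC box match was in 27 of these (87.1%), beside 62.6% of 11468 tested genes. The ETS letters were in 5 of the 31 (16.1%, beside 16.8% of tested genes) and the CCAAT letters in 15 (48.4%, beside 38.3%). The NRF1 letters were in 1, the window of Slc25a3 (3.23%, beside 9.71%), the CRE letters in 1 (3.23%, beside 3.13%) and the ERR letters in 0 (beside 0.724%). Of the 15 carriers that rose, 12 had a window. The GC box was in 12 of those 12, the CCAAT letters in 7, the ETS letters in 4, the NRF1 letters in 1, and the CRE and ERR letters in 0. Such matches describe the letters of these windows only.

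Carriers of di- and tricarboxylates also rose, 3 of 3 tested, beside 24.6% of all tested genes. They too have mRNAs under 2700 bp, where 53.9% of protein-coding genes rose. With the trend removed 1 was called higher and 0 lower. Slc25a11, which encodes the oxoglutarate carrier that exchanges malate for 2-oxoglutarate in the malate-aspartate shuttle, is on chromosome 11 from 70644196 to 70647479, minus strand. It was at 45.2, 43.8 and 44.4 CPM in controls and at 70.7, 74.4 and 61.7 CPM with EET. The controls were close together and each EET library was well above them (log2 fold change 0.63 ± 0.08, edgeR adjusted p = 2.31e-05). The call was made in 18 of 18 alternatives and the value with the trend removed was 0.21 ± 0.06 (adjusted p = 0.0147). Its exons overlap those of Rnf167 on the opposite strand by 189 bp. Rnf167 had 3104 counts in all libraries and Slc25a11 11542, and no source used here says whether strand was used in counting. The promoter window of Slc25a11, the other short-mRNA carrier called higher in both fits, is at chr11:70646990-70647289 (minus strand), with capitals as above. This window lies wholly inside the GENCODE span of the gene, and its positions are counted from RefSeq's start site.
Slc25a11: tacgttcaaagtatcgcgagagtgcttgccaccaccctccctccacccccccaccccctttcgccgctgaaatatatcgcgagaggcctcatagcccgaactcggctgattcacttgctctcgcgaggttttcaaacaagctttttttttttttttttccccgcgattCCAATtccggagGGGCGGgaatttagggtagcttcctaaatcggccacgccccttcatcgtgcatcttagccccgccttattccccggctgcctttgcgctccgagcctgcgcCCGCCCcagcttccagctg
It held CCAAT at −82 and the GC box letters at −70 and, on the other strand, at 32.

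Slc25a10, the gene of the dicarboxylate carrier that exchanges malate or succinate for phosphate, was at 41.5, 35 and 39.6 CPM in controls and at 57.9, 55.1 and 50.7 CPM with EET. The groups did not overlap, and the log2 fold change of 0.50 ± 0.09 (edgeR adjusted p = 0.000288) was 0.14 and not called with the trend removed (adjusted p = 0.0974). Slc25a1, the citrate carrier gene, rose by 0.32 ± 0.10 (adjusted p = 0.0128). It did not pass when control replicate 2 (adjusted p = 0.0761) or EET replicate 1 (0.0784) was left out, and with the trend removed the value was −0.15 (adjusted p = 0.116). Slc25a21, the oxodicarboxylate carrier gene, had 0 to 2 counts a library and was not tested.

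Among the carriers of amino acids and glutathione, 2 of 10 tested rose and 1 fell, beside 24.6% and 23.3% of all tested genes. Slc25a39, which encodes a mitochondrial glutathione transporter, was at 139, 129 and 131 CPM in controls and at 200, 192 and 184 CPM with EET. Both groups were tight and they did not overlap (log2 fold change 0.53 ± 0.07, edgeR adjusted p = 1.54e-05), while the value with the trend removed was 0.06 (adjusted p = 0.357). Its paralogue Slc25a40 was at 9.17, 8.17 and 10.4 CPM and at 7.84, 9.98 and 9.88 CPM, groups that overlapped (−0.003 ± 0.14, adjusted p = 0.989). The mRNA of Slc25a40 is longer (2784 bp, beside 1685 bp). Slc25a38, the gene of a carrier needed for haem synthesis that imports glycine, was at 10.9, 11.4 and 11.4 CPM in controls and at 18.2, 16.6 and 16 CPM with EET. The rise of 0.59 ± 0.11 (edgeR adjusted p = 0.000284) was 0.20 with the trend removed and not called (adjusted p = 0.132). The member that fell was Slc25a44, a carrier of branched-chain amino acids, at −0.31 ± 0.10 (adjusted p = 0.0193), or −0.21 with the trend removed (adjusted p = 0.0722). Nor did it pass when any of control replicates 2 and 3 (0.0992 and 0.089) and EET replicate 1 (0.0895) was left out.

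The aspartate/glutamate carriers of the malate-aspartate shuttle did not pass the threshold as counted. Slc25a12, the form of muscle and brain, had a log2 fold change of −0.07 ± 0.08 (edgeR adjusted p = 0.467), and Slc25a13, the form known as citrin, −0.19 ± 0.11 (adjusted p = 0.164). Slc25a12 has the longest mRNA among the carriers. With the trend removed it was called higher, at 0.39 ± 0.08 (adjusted p = 0.000892), while its level was 56.1 ± 3.69 CPM in controls and 53.3 ± 1.84 CPM with EET (SD, n = 3 each). The ornithine carrier gene Slc25a15 (0.12 ± 0.09), the glutamate carrier gene Slc25a22 (0.11 ± 0.09), the basic amino acid carrier gene Slc25a29 (−0.007 ± 0.24) and the second glutamate carrier gene Slc25a18 (0.10 ± 0.65, under 1 CPM) were not called in either fit. Slc25a2, a further ornithine carrier gene, had at most 5 counts in a library and was not tested.

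Carriers of coenzymes, nucleotides and vitamins moved both ways, with 4 of 10 tested higher and 1 lower, beside 24.6% and 23.3% of all tested genes. Slc25a17, which encodes a peroxisomal carrier of coenzyme A, FAD and NAD, was at 73.4, 66.3 and 68 CPM in controls and at 84.8, 88 and 83.9 CPM with EET. The EET libraries lay above each control (log2 fold change 0.31 ± 0.07, edgeR adjusted p = 0.00233), and with the trend removed the value was −0.09 (adjusted p = 0.198). Slc25a26, the gene of the S-adenosylmethionine carrier, was at 7.59, 6.27 and 6.49 CPM and at 8.98, 9.73 and 10.3 CPM. It rose by 0.51 ± 0.14 (edgeR adjusted p = 0.00604), or 0.19 with the trend removed (adjusted p = 0.286). Its exons overlap those of Lrig1 on the opposite strand by 144 bp, and Lrig1 had 25463 counts in all libraries against 1677, so its level is uncertain.

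The pyrimidine nucleotide carrier genes were called in opposite directions. Slc25a33 rose by 0.51 ± 0.17 (adjusted p = 0.0188), from 5.12 ± 0.406 to 7.31 ± 1.33 CPM, and Slc25a36 had a log2 fold change of −0.26 ± 0.09 (adjusted p = 0.024), from 47.8 ± 3.74 to 39.8 ± 3.27 CPM (SD, n = 3 each). Their mRNAs are 1887 and 5227 bp long, and with the trend removed both were above 0 and not called (0.16 and 0.03). Slc25a33 did not pass when control replicate 3 (adjusted p = 0.0788), EET replicate 1 (0.0541) or EET replicate 2 (0.103) was left out, nor did Slc25a36 when control replicate 2 (0.121), control replicate 3 (0.0902), EET replicate 1 (0.0821) or EET replicate 2 (0.106) was. Slc25a32, the folate and FAD carrier gene, was at −0.09 ± 0.07 as counted (adjusted p = 0.352), and was called higher relative to mRNAs of like length, at 0.27 ± 0.07 (adjusted p = 0.00386). The NAD carrier gene Slc25a51 was at −0.13 ± 0.07, Slc25a16 and Slc25a42, carriers linked to coenzyme A, at −0.17 ± 0.11 and −0.19 ± 0.22, and Slc25a53, a relative of Slc25a51, at 0.41 ± 0.28. None of these 4 was called in either fit. The mRNAs of Slc25a51, Slc25a42 and Slc25a48 share near-identical stretches with 129, 48 and 4 other genes of the table, and that of Slc25a12 with Adpgk, so counts of these carriers are uncertain.

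Of the 3 tested calcium-regulated carriers, which exchange ATP-Mg for phosphate, 1 fell and 0 rose, beside 23.3% and 24.6% of all tested genes. Slc25a24, the most abundant of them, is on chromosome 3 from 109123149 to 109168457, plus strand. It was at 179, 194 and 202 CPM in controls and at 143, 158 and 167 CPM with EET, so that the lowest control exceeded the highest EET library. Its log2 fold change of −0.30 ± 0.07 (edgeR adjusted p = 0.00413) was called in 18 of 18 alternatives, at −0.26 ± 0.05 with the trend removed (adjusted p = 0.00055). Slc25a23 was at 4.36, 6.21 and 5.72 CPM in controls and at 4.62, 3.9 and 3.73 CPM with EET. The lowest control lay below the highest EET library, and −0.41 ± 0.18 did not pass (edgeR adjusted p = 0.0788; 0.0254 without control replicate 1). Slc25a25 was at −0.10 ± 0.09 (adjusted p = 0.356), and Slc25a41 had at most 4 counts in a library and was not tested.

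Of the mitoferrins, which bring iron into the matrix for haem and iron-sulfur clusters, the form of most tissues rose and the erythroid form was not called. Slc25a28 was at 19.3, 19.7 and 18.6 CPM in controls and at 29, 30.8 and 25.9 CPM with EET (log2 fold change 0.57 ± 0.09, edgeR adjusted p = 0.000151). The groups were well separated. With the trend removed it was at 0.02 (adjusted p = 0.879), its mRNA being 1535 bp long. Slc25a37 was at 93.9, 104 and 102 CPM and at 94.1, 95.7 and 101 CPM, groups that overlapped (−0.05 ± 0.07, adjusted p = 0.622). With an mRNA of 4174 bp it was called higher relative to mRNAs of like length, at 0.16 ± 0.05 (adjusted p = 0.0187). Per kilobase of mRNA, Slc25a28 was at 0.523 ± 0.0336 of the level of Slc25a37 in controls and at 0.804 ± 0.0934 with EET (SD, n = 3 each), so Slc25a37 remained the more abundant. Division by length does not take out the trend. With the trend removed Slc25a28 had the lower value of the pair (0.02 beside 0.16).

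The carriers related to uncoupling proteins split. Slc25a30 fell from 55, 57.6 and 58.3 CPM in controls to 43.9, 43.7 and 47.9 CPM with EET. The groups lay apart, and the log2 fold change of −0.33 ± 0.08 (edgeR adjusted p = 0.00213) was called in 18 of 18 alternatives, at −0.25 ± 0.06 with the trend removed (adjusted p = 0.00322). It is on chromosome 14 from 75760117 to 75787037, minus strand. Slc25a14 was at 5.23, 4.55 and 4.29 CPM and at 5.47, 6.72 and 7.95 CPM, so the highest control came close to the lowest EET library. It rose by 0.51 ± 0.17 (adjusted p = 0.0227). That call was lost with the trend removed (0.16, adjusted p = 0.512), without control replicate 1 and EET replicate 3 together (0.0663), and without control replicate 2 (0.0735), control replicate 3 (0.0903), EET replicate 2 (0.0603) or EET replicate 3 (0.103). Slc25a27 was at 3.96 ± 0.263 and 3.96 ± 0.427 CPM (adjusted p = 0.999).

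Slc25a46, a member in the outer membrane that acts in mitochondrial fission and lipid transfer, rose against the length trend. It was at 57.7, 59.5 and 57.9 CPM in controls and at 69.5, 69.6 and 68 CPM with EET. Both groups were tight and did not overlap. The log2 fold change was 0.24 ± 0.07 (edgeR adjusted p = 0.00959) with an mRNA of 4371 bp, and 0.43 ± 0.06 with the trend removed (adjusted p = 2.65e-05), the highest value of any tested carrier in that fit. Scaled by library totals alone it was at 0.17 and not called (adjusted p = 0.0593).

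None of the 5 tested carriers with less settled substrates was called, where 47.9% of all tested genes, at any level, were called in either direction. All 5 were low, with group means of at most 5.42 CPM. With a minimum of 5 CPM in 3 libraries 29 carriers were left, of which 15 rose and 4 fell, and none of these 5 was among them. The lack of calls here was therefore not separated from low level. Slc25a47, known from liver, was at 4.65, 3.16 and 4.74 CPM in controls and at 5.67, 5.69 and 4.88 CPM with EET. The EET libraries were above each control, and 0.37 ± 0.19 did not pass (edgeR adjusted p = 0.115). Slc25a48 was at 0.526, 0.589 and 0.636 CPM and at 0.171, 0.384 and 0.373 CPM, the lowest log2 fold change among the carriers at −0.92 ± 0.49 (adjusted p = 0.139). That level rests on 20 to 22 counts a control library and 6 to 12 counts an EET library. Slc25a43 (0.36 ± 0.24), Slc25a45 (0.20 ± 0.17) and Slc25a35 (−0.06 ± 0.56) were likewise not called, and Slc25a34 and Slc25a54 had at most 8 counts in a library and were not tested.

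**Figure D4:**
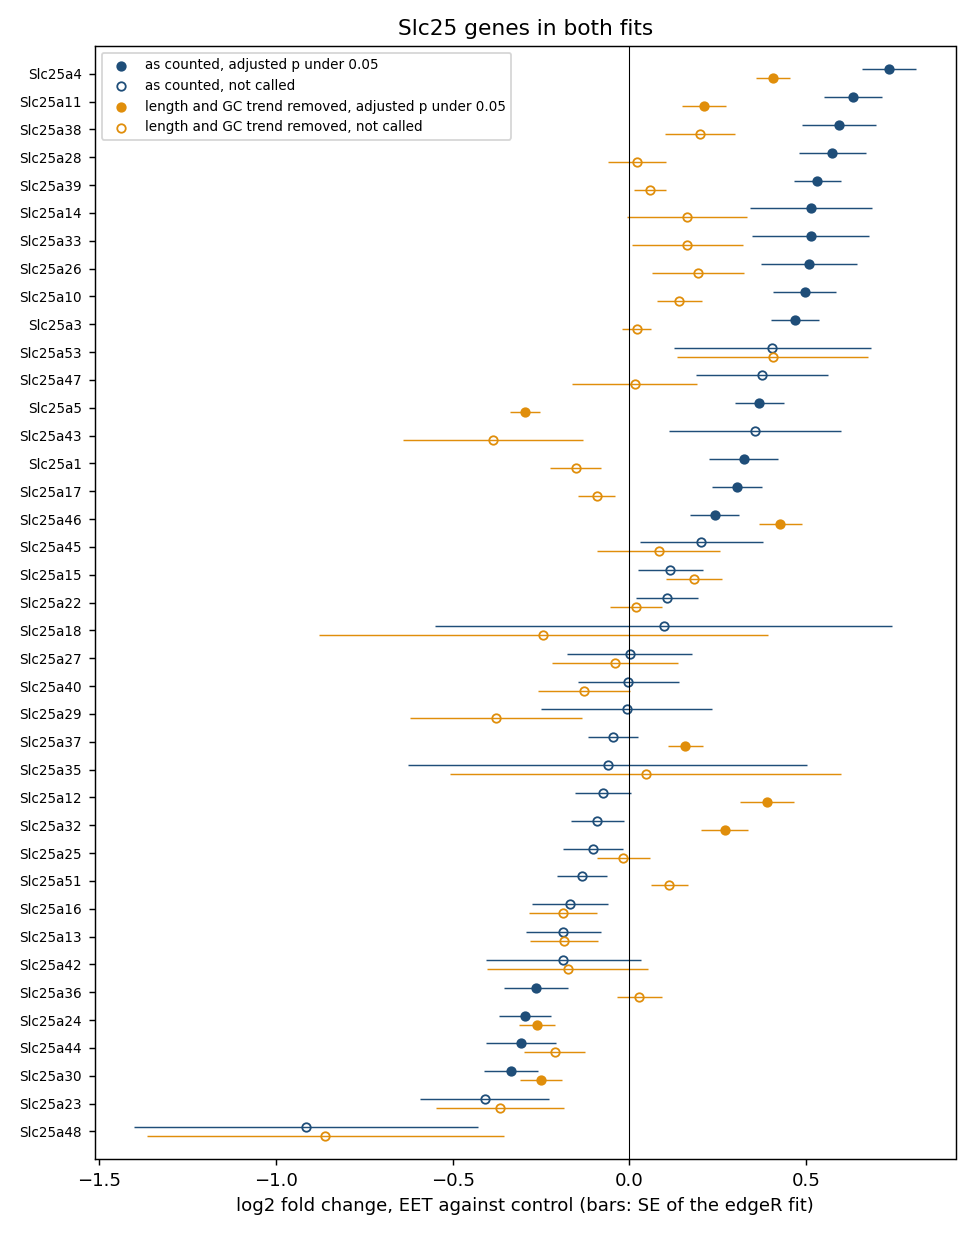
Log2 fold change with its SE for the tested Slc25 genes described here, as counted (blue) and after removal of the length and GC trend (orange); filled points have an adjusted p under 0.05. Slc25a4, Slc25a11 and Slc25a46 are filled and above 0 in both colours, Slc25a24 and Slc25a30 filled and below 0 in both, and Slc25a5 is filled on opposite sides.

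In level per kilobase of mRNA, Slc25a5, Slc25a3 and Slc25a4 were followed by Slc25a39 (78.9 ± 3.14 CPM per kb in controls and 114 ± 4.74 with EET). Slc25a24 (55.8 ± 3.36 and 45.5 ± 3.49) and Slc25a17 (40.2 ± 2.15 and 49.6 ± 1.24) came next and changed places, with Slc25a24 above in controls and a difference between the means with EET that was little more than the SD of Slc25a24. Slc25a11 was at 26 ± 0.427 and 40.3 ± 3.84 CPM per kb and Slc25a37 at 24 ± 1.33 and 23.2 ± 0.864, so their control means differed by little more than the spread. The order of the leading 4 was the same in both groups. Of the 40 tested carriers, 31 reached a group mean of 5 CPM and 3 stayed under 1 CPM in both groups.

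The 46 genes lie on 19 chromosomes, and in 4 places neighbouring members are less than 50 kb apart. Slc25a29 and Slc25a47 start from opposite strands of chromosome 12 with 162 bp between them, at log2 fold changes of −0.007 and 0.37. Slc25a43 and Slc25a5 lie 18448 bp apart on chromosome X, at 0.36 and 0.37, of which that of Slc25a5 was called. The neighbours of Slc25a24 and Slc25a23, which are Slc25a54 and Slc25a41, were among the genes too low to test.

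Most genes that insert carriers into mitochondria, a list of related genes, rose. Of 13 tested genes of TOM, small TIM and TIM22 components, 11 rose and 0 fell (median log2 fold change 0.76), beside 24.6% and 23.3% of all tested genes. The level of 1 of the 11 is uncertain. It had 516 counts in all libraries and shares near-identical stretches with 3 genes of the table that had 8930. With the trend removed 9 were called higher and 1 lower (median 0.58), beside 16.2% and 15.2%. Tomm20, an outer membrane receptor, was at 147, 144 and 149 CPM in controls and at 301, 295 and 259 CPM with EET. The rise of 0.96 ± 0.07 (edgeR adjusted p = 7.37e-07) was 1.26 with the trend removed, where its mRNA of 4902 bp is compared with other long ones. Timm8a1, a small TIM chaperone, rose by 1.13 ± 0.09, or 0.57 with the trend removed. Tomm70a, the receptor for carrier precursors, rose by 0.22 ± 0.06 (0.58 with the trend removed), Timm22, the channel of the TIM22 complex, by 0.74 ± 0.09 (0.68), whereas Agk and Timm29, other TIM22 subunits, were at −0.17 ± 0.09 and −0.06 ± 0.08 and not called as counted. Agk was the gene called lower with the trend removed (−0.30, adjusted p = 0.00482).

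Of the SLC25-fold genes that carry other names, Ucp1 and Ucp3 were too low to test. Of the other 3, 2 rose as counted and 3 were called higher with the trend removed, beside 24.6% and 16.2% of all tested genes. Mtch2, an insertase of the outer membrane, was at 113, 107 and 103 CPM in controls and at 156, 167 and 149 CPM with EET (0.55 ± 0.07, edgeR adjusted p = 1.8e-05; 0.43 with the trend removed). Mtch1, its relative, rose by 0.61 ± 0.08 (0.22 with the trend removed). Both lay wholly above the controls in the EET libraries. Ucp2 was at 0.22 ± 0.10 as counted and not called (adjusted p = 0.0882), and at 0.38 with the trend removed (adjusted p = 0.00331).

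Other transport proteins and the enzymes on either side of the carriers were mixed. For comparison, 24.6% of all tested genes rose and 23.3% fell. With the trend removed 16.2% of all tested genes were called higher and 15.2% lower. Of 10 porins, pyruvate carrier subunits and sideroflexins 5 rose and 1 fell, or 1 and 2 with the trend removed; Mpc2, a pyruvate carrier subunit, rose by 1.15 ± 0.14 (0.33 with the trend removed), and Vdac3, a porin, by 0.57 ± 0.07 (0.03). Of 8 enzymes of the malate-aspartate shuttle and of citrate export 3 rose and 1 fell, or 1 and 3 with the trend removed. Mdh2, the matrix malate dehydrogenase, rose by 0.49 ± 0.08 and was at −0.06 with the trend removed, while Acly, which cleaves the citrate exported by Slc25a1, fell from 237, 249 and 246 CPM to 170, 174 and 186 CPM (−0.47 ± 0.06, edgeR adjusted p = 3.69e-05; −0.23 with the trend removed). Of 9 partners in mitochondrial iron and haem handling 4 rose and 2 fell, or 2 and 1 with the trend removed. Iscu, the scaffold of iron-sulfur cluster assembly, rose by 0.89 ± 0.09 (0.31 with the trend removed). Its mRNA holds stretches of at least 100 bp that are at least 95% identical to 7 other genes of the table, so its level is uncertain.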

How the data were processed

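Paired reads came from stranded (dUTP) poly(A) libraries, per the labels' protocols. The authors deposited unnormalized counts, as whole numbers, of every gene symbol in 6 libraries. Per the submitters' processing notes, FastQC, cutadapt, DESeq2 and build GRCm38 were used. The aligner, counter, strand setting of the counting and annotation release are not stated in the sources used here. Between 61.3% and 65.6% of counts of 11 to 50 were even, so both mates of a fragment may have been counted, and counts over 2 were fitted as a further alternative.

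Of the 55494 table rows, 16097 passed filterByExpr and were fitted in R 4.3.3 with edgeR 4.0.16 (TMM, robust glmQLFit, glmQLFTest), 3 EET against 3 control libraries. Each log2 fold change carries the standard error of that fit. mRNA length (longest protein-coding transcript), GC content and coordinates come from GENCODE M21. The trend was how far a library's log2 values lay from the 6-library mean, smoothed by robust loess (span 0.3) on log2 length and GC percent of 13946 protein-coding genes, and was passed to edgeR as an offset; other genes were not corrected. Copies were sought with BLAST 2.17.0. The fit without trend removal was tested on simulated counts that had no added dependence on length or GC. The fit with the trend removed was not tested in that way. Alternatives used RLE, library totals, other filters, DESeq2 1.42.0, limma-voom (limma 3.58.1), no robust estimation, a replicate block and left-out libraries.

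Members, lists, transport roles and alternatives were chosen with earlier results of these data known. Values in every library are given for the 2 carriers with the smallest p in each role and for carriers called in opposite directions by the fits with and without the trend. The 2 genes with the smallest p are named in each related list. Values in every library of Slc25a40, and other related genes (Tomm70a, Timm22, Timm29, Agk and Ucp2) were chosen after the values were seen. Some genes of the family and of the related lists are not reported here by name, though some are included in the counts.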

Additional observations from a re-analysis of the deposited data

How the results depend on the processing

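The counts of carriers were the same, 15 higher and 4 lower, with RLE scaling, no filter, a minimum of 5 CPM in 3 libraries, DESeq2, limma-voom, no robust estimation and counts divided by 2, and with the replicate block. Library totals gave 14 and 6. Removal of the length and GC trend gave 6 and 3, or 7 and 4 in the fit that also had the replicate block. Leaving out 1 library gave 12 to 15 higher and 2 to 5 lower, the 2 being without control replicate 2, control replicate 3 or EET replicate 1. Without control replicate 1 and EET replicate 3 together, the library of each group with the weakest dependence on mRNA length, 14 were higher and 6 lower. Removal of the trend left 2604 calls upward and 2445 downward among all tested genes, beside 3967 and 3749, and 16 and 7 among the related genes, beside 25 and 4 (7 downward with the replicate block too). Leaving out 1 library gave 2 to 5 related genes lower, 2 being without control replicate 3.

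Among the genes named by rule, directions turned with the trend removed for Slc25a17 (−0.0920 and, with the replicate block, −0.0924), Slc25a37 (0.16 and 0.16), Slc25a5 (−0.30 and −0.30) and Mdh2 (−0.0559 and −0.0546). The other genes named by rule kept theirs in the alternatives run. Further carriers, not named by that rule, also changed sign with the trend removed. Among them were Slc25a1 (0.32 to −0.15), Slc25a12 (−0.07 to 0.39), Slc25a32 (−0.09 to 0.27) and Slc25a36 (−0.26 to 0.03). The cause of these changes was not tested. Deviations of libraries with the same replicate number correlated at −0.0035, −0.0501 and 0.0089, so the numbers were not taken as pairs. Carriers under 1 CPM, with 3 to 31 counts a library, had standard errors of 0.49 to 0.65, and at that depth a change of the size seen in other carriers was not detectable.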
